A study of Homo sapiens with 36 samples.

Results

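The 9 cytosolic HSP70 and HSP110 genes (HSPA1A, HSPA1B, HSPA1L, HSPA2, HSPA4, HSPA4L, HSPA6, HSPA8 and HSPH1) were taken by symbol from 3 tables of gene-level read counts, which hold 54583 genes each. All 9 were present in every table and passed the filter on low counts. Sequenced polyA RNA came from MDA-MB-231, a human triple-negative breast cancer cell line with mesenchymal features. The cells received SHP1705, a stabilizer of cryptochromes, the repressors of the circadian clock, a proteasome inhibitor, or both. Each of the 3 tables covers 12 libraries in 4 groups of 3. In the MG132 table the groups, all at 8 h, were DMSO, SHP1705 at 10 µM, MG132 at 100 nM, and SHP1705 with MG132, here the combination. In the 2 carfilzomib tables, at 8 h and at 24 h, the groups were DMSO, SHP1705 at 10 µM, carfilzomib at 10 nM and their combination. Drugs were added from DMSO stocks, per the labels' protocols, so every group received the solvent. The design text speaks of 3 independent experiments with all 4 groups, but no label ties a replicate number to a culture, so each p-value reflects spread among the libraries at hand, and that spread may be technical.

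HSP70 proteins bind stretches of unfolded protein and release them through a cycle of ATP hydrolysis. J-domain proteins (HSP40) start the hydrolysis, and nucleotide exchange factors, among them the HSP110 proteins, reset the cycle. Cells carry constitutive HSP70, mainly HSPA8 (HSC70), and inducible HSP70, encoded by HSPA1A, HSPA1B and HSPA6, which heat shock factor HSF1 switches on when damaged protein accumulates. Blocking the proteasome is a classical trigger of that response. HSPA1A and HSPA1B encode nearly the same protein, HSPA6 is close to silent in unstressed human cells, and HSPA1L and HSPA2 are best known from the male germ line. HSPA4 (APG-2), HSPA4L (APG-1) and HSPH1 (HSP105) encode the HSP110 proteins.

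The genes lie on 7 chromosomes of GRCh38 in the GENCODE annotation. HSPA1A, chr6:31815464-31817946, HSPA1B, chr6:31827735-31830255, and HSPA1L, chr6:31809619-31815065, are neighbours, with HSPA1L on the opposite strand to HSPA1A. HSPA6 is at chr1:161524540-161526910, and HSPA8, on the minus strand, at chr11:123057489-123063230. HSPA2 is at chr14:64535905-64546173, HSPA4 at chr5:133051962-133106449, HSPA4L at chr4:127781821-127840733 and HSPH1, on the minus strand, at chr13:31134974-31162388. HSPA1A, HSPA1B and HSPA6 are single-exon genes, whereas HSPA8 has 9 exon blocks. HSF1 binds repeats of the unit GAA in alternating direction, so the 250 bases before the RefSeq start of each gene (GRCh38.p14) were searched for the repeat GAANNTTC and for 3 alternating units, GAANNTTCNNGAA or TTCNNGAANNTTC. The first motif equals its own reverse complement, and the second was searched on both strands and contains the first. GAANNTTC occurs in 5.78% of all 35116 RefSeq windows of that length and the motif of 3 units in 0.441%. The stretches of the 3 inducible genes and of HSPA8 are shown because the results turn on these genes. They are written 5′ to 3′ along the gene with the motif matches in capitals, and those of the inducible genes leave out bases that GENCODE annotates as exon of the gene. For HSPA8, where most of the window lies in exons of alternative transcripts, only 30 bases around each match are given.
HSPA1A, chr6:31815293-31815463, plus strand: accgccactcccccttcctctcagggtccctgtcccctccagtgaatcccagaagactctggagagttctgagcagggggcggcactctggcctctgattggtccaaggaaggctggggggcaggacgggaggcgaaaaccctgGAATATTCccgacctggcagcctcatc
HSPA1B, chr6:31827488-31827734, plus strand: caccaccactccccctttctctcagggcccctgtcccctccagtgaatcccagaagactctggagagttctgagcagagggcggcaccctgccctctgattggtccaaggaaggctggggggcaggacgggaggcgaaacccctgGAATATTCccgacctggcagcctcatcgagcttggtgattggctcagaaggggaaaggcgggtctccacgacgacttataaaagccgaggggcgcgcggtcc
HSPA6, chr1:161524290-161524539, plus strand: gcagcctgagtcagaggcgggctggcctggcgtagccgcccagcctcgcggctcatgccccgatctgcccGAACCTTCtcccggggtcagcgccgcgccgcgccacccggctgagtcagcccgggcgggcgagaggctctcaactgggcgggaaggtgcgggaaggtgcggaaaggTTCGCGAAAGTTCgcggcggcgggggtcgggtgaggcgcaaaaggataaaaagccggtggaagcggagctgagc
HSPA8 distal match, chr11:123062345-123062374, minus strand: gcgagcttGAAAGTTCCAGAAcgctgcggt
HSPA8 proximal match, chr11:123062170-123062199, minus strand: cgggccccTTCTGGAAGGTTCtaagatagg

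HSPA6 held a match to the motif of 3 units 74 to 62 bases before its start and HSPA8 held matches at 230 to 218 and at 55 to 43 bases. HSPA1A (106 to 99 bases before the start) and HSPA1B (105 to 98) held the same 8 bases, GAATATTC, as their only match. HSPA1L lies back to back with HSPA1A, and its window holds the identical bases at chr6:31815437-31815444. Of 11 windows of the 9 genes (HSPA4L has several starts), 5 held GAANNTTC and 2 the motif of 3 units. HSPA2, HSPA4, HSPA4L and HSPH1 had no match, which says only that these letters are not in these windows. The windows of HSPA1A and HSPA1B were identical in 93.6% of aligned columns, against 47.7% between HSPA1A and HSPA6. Likeness extends into the transcripts, where 69.9% of all 100-base windows of HSPA1A occur letter for letter in HSPA1B. The split of reads between those genes is uncertain for that reason, and their sum is the firmer value. Of the 100-base windows of HSPA6, 27.6% occur in its neighbour and near copy HSPA7.

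Libraries held 34191153 to 39251609 counts in the MG132 table, 17781035 to 27670810 in the carfilzomib table at 8 h and 18864725 to 34008423 at 24 h. Markers fit the line, with VIM at 690.9 CPM or more in every library, the estrogen receptor gene ESR1 at 0.444 CPM or less and the epithelial EPCAM low but present at 5.986 to 26.29 CPM. Of 3 markers of luminal epithelium, KRT8 (436.9 to 1209 CPM) and KRT18 (182.9 to 518.5 CPM) were high, and GATA3 was at 3.546 to 18.18 CPM. The marker list had allowed for KRT8 and KRT18 in this line. CPM are counts scaled to a common library size after TMM normalization. The fibroblast gene POSTN varied in the MG132 table, where combination libraries held 98.22 to 241.6 CPM. Of the other libraries, 4 held it too (28.18 and 29.35 CPM in replicates 2 and 3 of SHP1705, 33.6 and 173 CPM for replicates 1 and 3 with MG132), and the rest had 0.267 CPM or less. The sum of 6 fibroblast markers, POSTN among them, was 13.98 to 14.57 CPM in DMSO and 115.9 to 262.7 CPM in the combination. That rise was mainly POSTN itself. In the MG132 table COL1A1 stayed at 3.977 to 11.36 CPM and COL1A2 at 6.642 to 10.07 CPM. COL3A1 stayed at 1.035 CPM or less there and LUM at 1.683 CPM or less. DCN, a defining fibroblast gene, stayed at 0.171 CPM or less in every library. The source of POSTN is not known. Its part in the results of that table was not tested beyond the values without the 4 libraries outside the combination, which are given below. The sum of 4 blood cell markers stayed at 2.104 CPM or less in every library.

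In the carfilzomib table at 8 h the HSP70 genes did not follow the labels. HSPA1A was at 14550, 23590 and 23230 CPM in the libraries labelled DMSO, against 533 to 714.8 CPM in the DMSO libraries of the other tables. It was at 19840, 704.1 and 692.4 CPM in the libraries labelled SHP1705 and at 890.7, 12010 and 15040 CPM in those labelled combination. PER3, a clock gene that was lower in all SHP1705 and combination libraries of the other 2 tables, was at 8.185, 2.058 and 1.545 CPM in the libraries labelled DMSO and at 2.251, 9.615 and 7.907 CPM in those labelled SHP1705. PER3 was also at 6.772, 1.256 and 1.69 CPM in the libraries labelled carfilzomib and at 1.918, 7.679 and 8.189 CPM in those labelled combination. Neither gene sorted the 12 libraries by label, as the plot of HSPA1A against PER3 shows, and no library was relabelled. By both genes, DMSO replicates 2 and 3 and SHP1705 replicate 1 were high in HSPA1A and low in PER3. SHP1705 replicates 2 and 3 and carfilzomib replicate 1 were the reverse. Carfilzomib replicates 2 and 3 and combination replicate 1 were low in both. Combination replicates 2 and 3 and DMSO replicate 1 were high in both. High was at least 12010 CPM of HSPA1A or 6.772 CPM of PER3, low at most 894.7 or 2.251 CPM. Why each replicate 1 fell with another label was not tested. Every direction drawn from that table rests on labels that these genes go against.

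**Figure D1:**
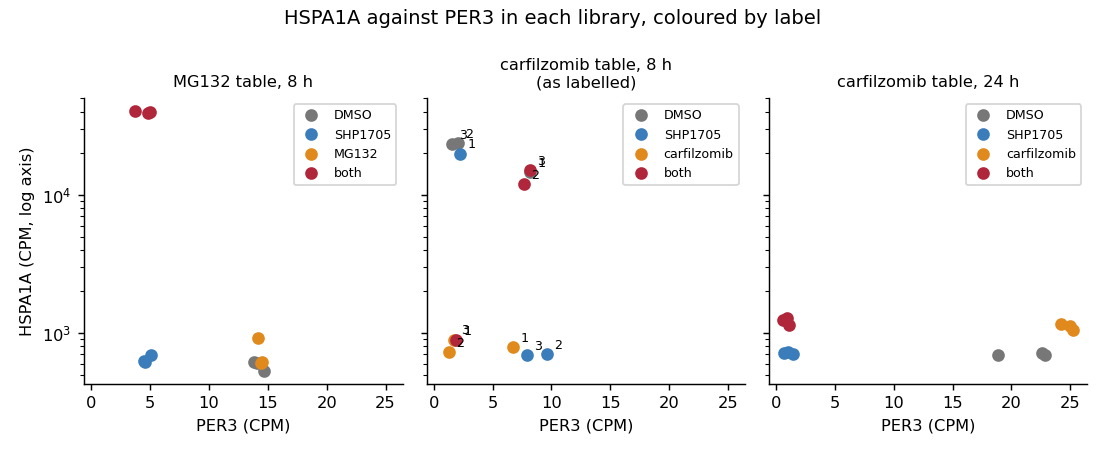
HSPA1A (CPM, log axis) against PER3 (CPM) in each of the 36 libraries, coloured by label, with replicate numbers in the carfilzomib table at 8 h. In the MG132 table and at 24 h all libraries with SHP1705 have less PER3 than all without it, while in the carfilzomib table at 8 h the libraries labelled SHP1705 fall at both 692.4 and 19840 CPM of HSPA1A.

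Without drug, HSPA8 was the most abundant HSP70 transcript per length in the MG132 table. Its level per kilobase of exon was 697.3 ± 14.0 CPM (SD, n = 3) in DMSO, followed by HSPA1B at 411.8 ± 25.6 and HSPA1A at 236.1 ± 18.5 CPM per kilobase. Among HSP110 genes HSPA4 led with 55.87 ± 0.667 CPM per kilobase, above HSPH1 at 28.95 ± 0.169 and HSPA4L at 4.845 ± 0.0305. HSPA1L was at 2.892 ± 0.0963, HSPA6 at 0.3542 ± 0.0347 and HSPA2 at 0.1498 ± 0.0649 CPM per kilobase. Neighbours in that order were separated by more than their SDs. At 24 h the DMSO libraries of the carfilzomib table placed HSPA1B first (484.2 ± 14.5 CPM per kilobase), before HSPA8 (335.6 ± 2.25) and HSPA1A (281.2 ± 5.82). HSPA4L (3.312 ± 0.123) and HSPA1L (3.186 ± 1.04) overlapped there. Exon lengths sum over all annotated transcripts, which lowers the value of genes with many of them, such as HSPA4L and HSPA8. The length used was 4849 bases for HSPA8 and 2521 for HSPA1B. In CPM not divided by length, HSPA8 was above HSPA1B in DMSO at 24 h (1627 ± 10.9 against 1221 ± 36.6). The first place of HSPA1B there thus depends on the length used.

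SHP1705 alone at 8 h was compared with DMSO in the MG132 table to ask what the clock compound does by itself. The inducible genes did not pass the test, and 2 of 9 genes did by small amounts, where 7.53% of all 16591 genes passed. HSPA8 was at 3456, 3324 and 3363 CPM in DMSO and at 3291, 3105 and 3180 CPM with SHP1705. All treated libraries lay below all DMSO libraries, and HSPA8 fell by 0.08 ± 0.02 (log2 fold change, SE, edgeR's quasi-likelihood test, Benjamini-Hochberg adjusted p = 0.0306). HSPA4L was at 56.42, 55.9 and 56.58 CPM in DMSO and rose to 61.62, 60.34 and 61.9 CPM (0.12 ± 0.04, adjusted p = 0.0387). HSPA1A was at 533, 614.4 and 611 CPM in DMSO and at 695, 630 and 613.9 CPM with SHP1705, with overlapping groups (0.14 ± 0.11, adjusted p = 0.496). These calls were fragile. The number of genes called was 0 without DMSO replicate 1 or 3 or SHP1705 replicate 2 or 3, and 1 without DMSO replicate 2, SHP1705 replicate 1 or combination replicate 2. Without the 4 libraries with POSTN, which leaves 1 SHP1705 library that is assumed to vary like the rest, neither HSPA8 (-0.04) nor HSPA4L (0.13) was called, and HSPA1A was (0.25, adjusted p = 0.0414, edgeR). At 24 h edgeR's quasi-likelihood test called 0 of 9 genes for SHP1705 against DMSO (3 with an unadjusted p under 0.05, 0 by DESeq2), where 4.46% of all genes were called. HSPA8 was again lower in every SHP1705 library of that table, at 1447, 1478 and 1494 CPM against 1616, 1627 and 1638 CPM (-0.14 ± 0.05, adjusted p = 0.105, edgeR). It was called without carfilzomib replicate 3 (-0.14, adjusted p = 0.00519). It was also called with no filter on low counts, with only the groups compared and with the replicate as a block. Over all alternatives HSPA8 ranged from -0.15 to -0.13 (adjusted p 0.00467 to 0.248, edgeR or DESeq2).

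With MG132 alone none of the 9 genes passed the test, and 1 library stood above the others in the inducible genes. HSPA1A was at 608.1, 612.1 and 925.5 CPM with MG132, so 2 libraries lay within the DMSO range and replicate 3 above it. HSPA1B followed at 1064, 1024 and 1509 CPM, against 964.4, 1066 and 1084 CPM in DMSO. HSPA6 repeated the pattern, with 35, 28 and 80 counts in the MG132 libraries and 35, 27 and 32 in DMSO. Replicate 3 is also the MG132 library with the most POSTN. By edgeR's quasi-likelihood test 0 of 9 genes were called (2 with an unadjusted p under 0.05, 0 by DESeq2), as were 0% of all genes. HSPA1A had a log2 fold change of 0.29 ± 0.11 (adjusted p = 0.377) and HSPA8 of -0.01 ± 0.02 (adjusted p = 0.961).

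SHP1705 together with MG132 raised 7 of 9 genes against DMSO, where 29.2% of all genes tested were called higher. The 3 inducible genes had the greatest fold changes of the 9, HSPA8 and the HSP110 genes followed, and HSPA1L and HSPA2 were not called. HSPA1A was at 38900, 40590 and 39680 CPM in the combination, against 533 to 614.4 CPM in DMSO. That is a 67.8-fold difference (log2 fold change 6.08 ± 0.13, edgeR's quasi-likelihood test, Benjamini-Hochberg adjusted p = 3.27e-18). HSPA1B reached 52210, 54120 and 54360 CPM, 51.6-fold above DMSO (5.69 ± 0.11). The sum of both genes rose by 5.84 on the log2 scale and took 7.93% ± 0.11 of all counts in the combination libraries (SD, n = 3), against 0.17% ± 0.0114 in DMSO. TMM scaling, which the fold changes use, left the median log2 fold change over all genes at -0.01 in that comparison. HSPA6 went from 35, 27 and 32 counts in DMSO to 4519, 4959 and 4933 counts (183-fold, 7.51 ± 0.14), which made it the member with the greatest fold change but, at 65.05 ± 2.5 CPM per kilobase, not with the highest level. In bulk RNA more cells with a transcript and more transcript per cell cannot be told apart.

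**Figure D2:**
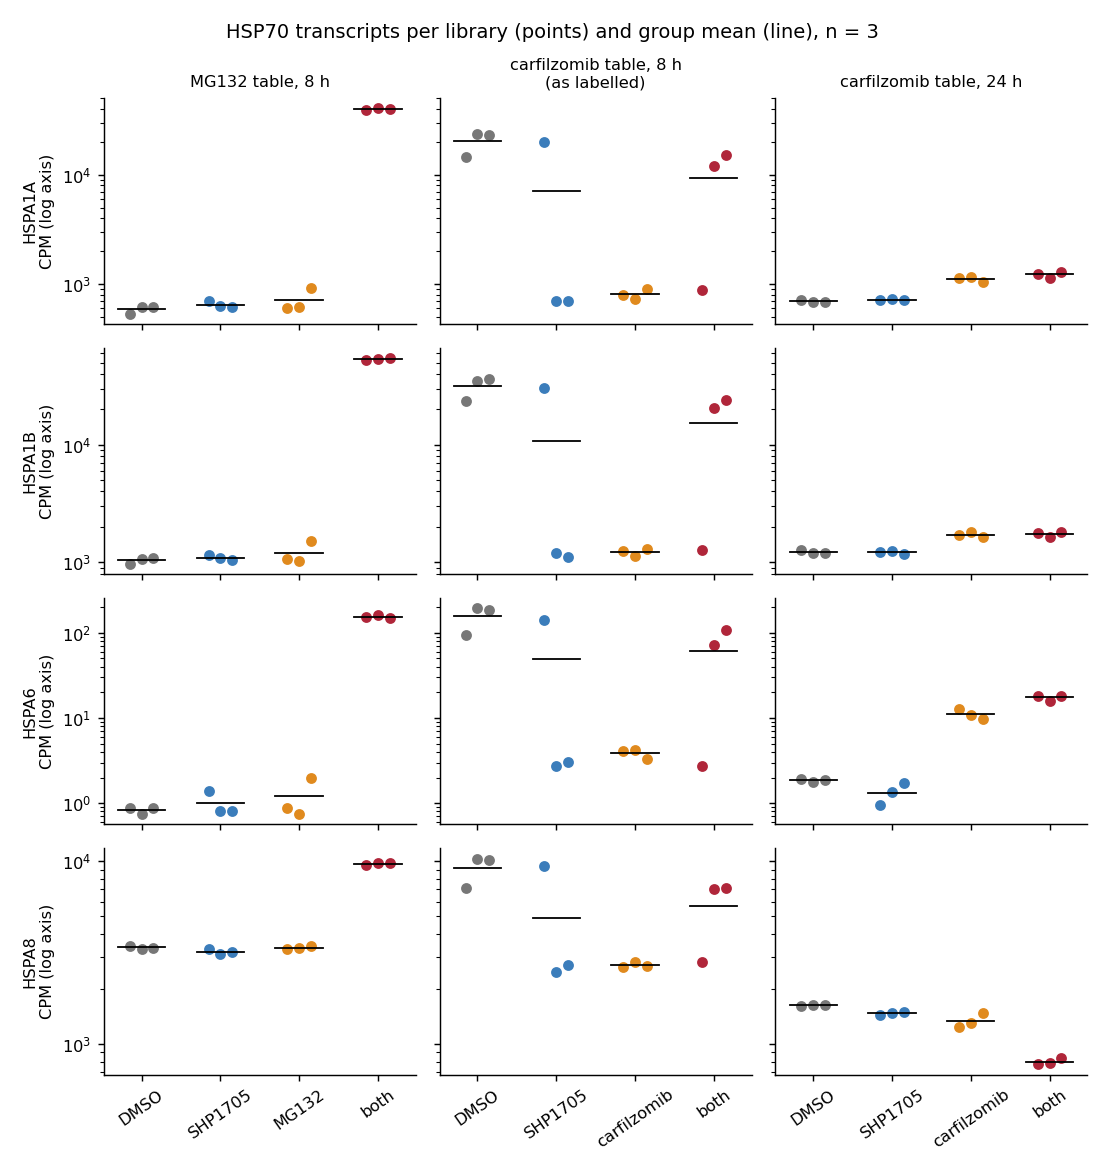
HSPA1A, HSPA1B, HSPA6 and HSPA8 (CPM, log axis) in each library (points) with the group mean (line, n = 3) for the 3 tables. The MG132 combination stands apart in all 4 genes, at 38900 to 40590 CPM for HSPA1A, and at 24 h HSPA8 is lowest in the combination while HSPA6 is highest there.

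HSPA8, the constitutive gene, rose as well, from 3456, 3324 and 3363 CPM to 9584, 9785 and 9750 CPM (2.87-fold, 1.52 ± 0.02). Its libraries did not overlap with DMSO, and its fold change was far below that of the inducible genes. Of the HSP110 genes, HSPH1 rose most, from 244.4, 242.5 and 241.6 CPM to 1565, 1627 and 1640 CPM (6.63-fold, 2.73 ± 0.03). HSPA4L rose from 56.3 ± 0.355 CPM (SD, n = 3) to 218.3 ± 1.29 CPM (1.96 ± 0.03), and HSPA4 from 287.9 ± 3.44 to 655.3 ± 12.5 CPM (1.19 ± 0.03). In this comparison the 3 HSP110 genes thus spanned 2.28-fold (HSPA4) to 6.63-fold (HSPH1). HSPA1L was at 8.094, 6.748 and 9.377 CPM in the combination and at 7.329, 7.615 and 7.127 CPM in DMSO (0.14 ± 0.13, adjusted p = 0.377, edgeR). HSPA2 had 20 to 37 counts in the combination and 24 to 47 in DMSO (0.15 ± 0.32), a depth at which only large changes can be seen. The fibroblast marker sum given above moved with this contrast through POSTN, which was high in all combination libraries and in no DMSO library. MG132 replicate 3 held 173 CPM of POSTN, more than the 98.22 CPM of combination replicate 1, and had HSPA1A at 925.5 CPM. That is a single library, and a link between POSTN and HSPA1A was not tested. The 9 genes had a median log2 fold change of 1.96, and all genes tested one of -0.01.

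Against MG132 alone, the combination shows what SHP1705 added to the inhibitor. Here 8 of 9 genes rose, where 28.2% of all genes did. HSPA1A (5.80 ± 0.13), HSPA1B (5.48 ± 0.11), HSPA6 (6.98 ± 0.13), HSPA8 (1.53 ± 0.02), HSPH1 (2.71 ± 0.03), HSPA4L (1.95 ± 0.03) and HSPA4 (1.19 ± 0.03) had log2 fold changes close to those against DMSO, and both comparisons use the same combination libraries. Without the 4 POSTN libraries, which leaves 1 MG132 library that is assumed to vary like the rest, HSPA1A was at 6.01, HSPA6 at 7.67 and HSPA8 at 1.53. HSPA1L was the eighth gene, at 6.257, 5.458 and 7.842 CPM with MG132 and with overlapping groups (0.31 ± 0.13, adjusted p = 0.0471, edgeR). It was not called by DESeq2 (0.30, adjusted p = 0.0728), and no fit that left out 1 library called it except those without MG132 replicate 3 or combination replicate 2 (range of all alternatives 0.18 to 0.56, adjusted p 0.00478 to 0.296). Against SHP1705 alone 7 genes rose, where 31.0% of all genes did, led by HSPA6 (7.25 ± 0.14).

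The interaction term measures how far the effect of both drugs lies from adding up their separate log2 effects. In the MG132 table a positive term was called for 7 of 9 genes, where 24.7% of all genes had a positive term that was called. It was 6.72 ± 0.44 for HSPA6, 5.65 ± 0.16 for HSPA1A, 5.41 ± 0.14 for HSPA1B and 1.61 ± 0.03 for HSPA8. The HSP110 genes had terms of 2.66 ± 0.04 (HSPH1), 1.83 ± 0.05 (HSPA4L) and 1.23 ± 0.04 (HSPA4). For HSPA6 the term lies below the combination's own log2 fold change of 7.51, with uncalled values of 0.26 for SHP1705 and 0.53 for MG132. HSPA1L (0.07 ± 0.18) and HSPA2 (0.07 ± 0.45) had no called term.

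Carfilzomib alone for 24 h gave a smaller and mixed pattern. The inducible genes and 2 HSP110 genes rose, 5 of 9 in all where 10.1% of all genes rose. HSPA8 fell, 1 of 9 where 11.4% of all genes fell, so that the share that fell was near that of all genes. HSPA6 was at 1.913, 1.789 and 1.869 CPM in DMSO and at 12.69, 10.73 and 9.657 CPM with carfilzomib (5.92-fold, log2 fold change 2.57 ± 0.17, edgeR's quasi-likelihood test, adjusted p = 1.31e-10). HSPA1A went from 714.8, 689.4 and 690.2 CPM to 1125, 1158 and 1046 CPM (1.59-fold, 0.67 ± 0.05), and HSPA1B rose by 0.49 ± 0.04. All 3 carfilzomib libraries lay above all 3 DMSO libraries for these genes. HSPA8 was at 1243, 1296 and 1481 CPM, below every DMSO library (fell by 0.28 ± 0.05, adjusted p = 0.000203). HSPA4 (0.21 ± 0.05) and HSPA4L (0.27 ± 0.07) rose, while HSPH1 was at 155.4, 158.2 and 159.5 CPM against 148.2, 152.9 and 157.9 CPM in DMSO (0.04 ± 0.05, adjusted p = 0.596).

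With SHP1705 added, HSPA6 was higher still after 24 h, while HSPA8 stood at 0.491 times its DMSO level. HSPA6 was at 18.26, 15.92 and 18.33 CPM in the combination (9.42-fold over DMSO, 3.24 ± 0.17). HSPA8 was at 775.7, 786.6 and 836.4 CPM, against 1616 to 1638 CPM in DMSO, and fell by 1.03 ± 0.05 (adjusted p = 3.41e-13, edgeR's quasi-likelihood test). HSPA1A (0.81 ± 0.05), HSPA1B (0.52 ± 0.04) and HSPA4 (0.22 ± 0.05) rose, and HSPH1 fell, from 153 ± 4.82 to 121.2 ± 4.55 CPM (SD, n = 3, log2 fold change -0.34 ± 0.05). That makes 4 higher genes of 9, where 13.0% of all genes were higher, and 2 lower, where 14.3% were lower. The fibroblast marker sum was 11.91 to 13.38 CPM in this combination and 11.89 to 12.85 CPM in DMSO, and POSTN had at most 1 count in any library of the 24 h table.

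Against carfilzomib alone, the combination at 24 h had more HSPA6 and less HSPA8 and HSPH1, while HSPA1A and HSPA1B were not called. Whether HSPA6 differed from the other inducible genes was not tested. HSPA6 rose by 0.67 ± 0.13 (adjusted p = 0.00228, edgeR's quasi-likelihood test), 1 of 9 where 4.36% of all genes rose. HSPA8 fell by 0.75 ± 0.05 and HSPH1 by 0.38 ± 0.05, 2 of 9 where 4.67% of all genes fell. HSPA1A was at 1245, 1142 and 1289 CPM against 1125, 1158 and 1046 CPM, overlapping, with 0.14 ± 0.05 (adjusted p = 0.0517). It was called by DESeq2 (0.15, adjusted p = 0.0205), when no gene was filtered for low counts (0.15), and without carfilzomib replicate 2 or combination replicate 2 (0.17 and 0.19). HSPA1B had a log2 fold change of 0.03 ± 0.04 (adjusted p = 0.735). Against SHP1705 alone 5 genes rose, where 11.8% of all genes did, and HSPA8, HSPH1 and HSPA1L fell, 3 of 9 where 12.4% did. HSPA1L was not called there without combination replicate 1 (-0.62, adjusted p = 0.0567), and HSPA4L (0.21 ± 0.07) was not called without SHP1705 replicate 2 or 3 or combination replicate 2 or 3. Against DMSO, HSPA1L (-0.47 ± 0.22, adjusted p = 0.117, edgeR) was called without DMSO replicate 2 or combination replicate 2 (-0.73 and -0.70).

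**Figure D3:**
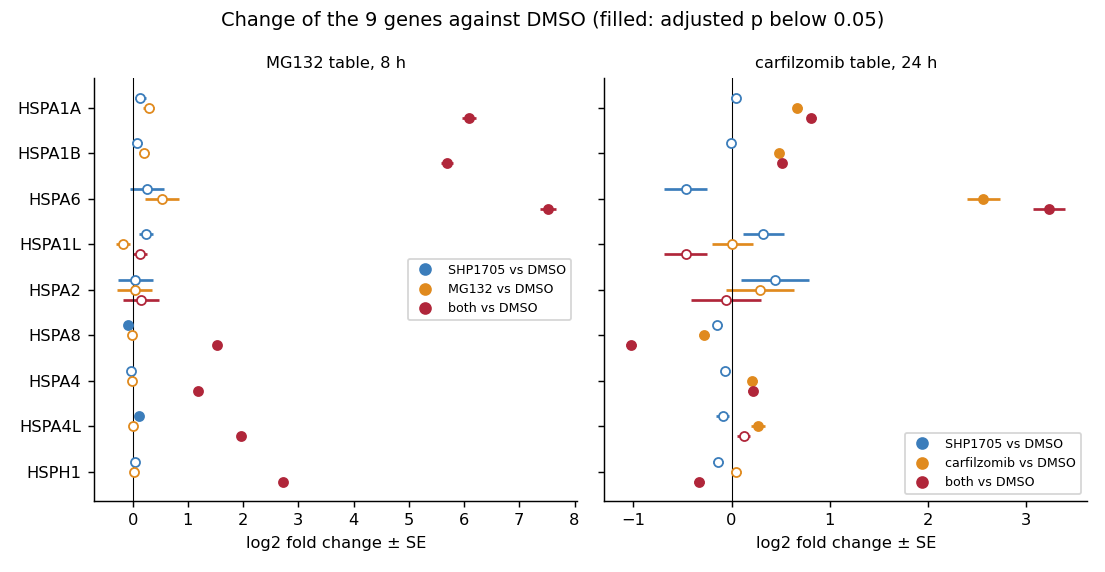
Log2 fold change against DMSO with its standard error for the 9 genes in the MG132 table at 8 h and the carfilzomib table at 24 h, filled where the adjusted p is below 0.05. In the MG132 combination all 9 points lie to the right of 0 and 7 are filled, whereas in the 24 h combination HSPA8 and HSPH1 are filled on the left, HSPA1L and HSPA2 lie on the left unfilled, and HSPA6 is at 3.24 on the right.

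In the interaction at 24 h, HSPA8 had a called negative term (-0.60 ± 0.07, adjusted p = 0.000104, edgeR's quasi-likelihood test). That is 1 of 9 genes, where 0.272% of all genes had a negative term that was called. HSPA6 had a called positive term (1.14 ± 0.26, adjusted p = 0.0456, the same test), 1 of 9 where 0.210% of all genes had one that was called. The HSPA8 term was called in every alternative fit (-0.65 to -0.52, adjusted p at most 0.00121). That of HSPA6 was not called in any fit that left out a library except those without SHP1705 replicate 3, carfilzomib replicate 1 or carfilzomib replicate 2 (0.94 to 1.37 over all alternatives, adjusted p up to 0.133). DESeq2 gave it no adjusted p, and called HSPH1 (-0.24, adjusted p = 0.0238) beside HSPA8. HSPA6 rests on 24 to 47 counts per library in the SHP1705 and DMSO groups of that table.

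In the carfilzomib table at 8 h, read as labelled, carfilzomib against DMSO lowered 7 of 9 genes, where 11.3% of all genes fell. HSPA1A was at 791.5, 725 and 894.7 CPM in the libraries labelled carfilzomib and at 14550 to 23590 CPM in those labelled DMSO (-4.67 ± 1.28, adjusted p = 0.04, edgeR's quasi-likelihood test). HSPA6 had 101, 108 and 81 counts against 1607, 4592 and 3911, and HSPA8 was at 2632, 2807 and 2680 CPM against 7105, 10330 and 10130 CPM. For the inducible genes and for HSPA4 and HSPA4L the direction is opposite to that at 24 h. It rests on labels that PER3 and these genes go against. No gene was called without any 1 of DMSO replicates 2 and 3 or carfilzomib replicates 1, 2 and 3. The other comparisons of this table, SHP1705 against DMSO, combination against DMSO, against carfilzomib and against SHP1705, and the interaction, called 0 of 9 genes by edgeR (2, 1, 5, 1 and 8 with an unadjusted p under 0.05) and 0% of all genes. DESeq2 called 0 in the first 4 of them and 2 in the interaction.

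In that table, 7 genes had a gap in level that the labels do not follow. It was wide for HSPA1A, HSPA1B, HSPA6, HSPA8 and HSPH1. For HSPA4L (82.19 to 139.9 CPM) and HSPA4 (254.2 to 328.9 CPM) it was narrower. No library lay between 894.7 and 12010 CPM of HSPA1A, between 4.238 and 71.11 CPM of HSPA6, between 2807 and 7007 CPM of HSPA8 or between 274.6 and 734.9 CPM of HSPH1. The libraries above each gap were the 3 labelled DMSO, SHP1705 replicate 1 and combination replicates 2 and 3. HSPA1L and HSPA2 had no such gap, at 5.386 to 11.1 and 2.292 to 3.296 CPM. SHP1705 replicate 1 and combination replicate 1 stood apart from the others of their label in HSPA1A level, and leaving them out selects on the outcome. Counts without them are therefore a description of the remaining libraries and not a test of the treatments. The remaining libraries include DMSO replicate 1 and carfilzomib replicate 1, which stood apart from their labels in PER3. They held 8.185 and 6.772 CPM of it, against 1.256 to 2.058 CPM in replicates 2 and 3 of those labels. In the fit without SHP1705 replicate 1 and combination replicate 1, the combination against carfilzomib called 7 genes, all higher, where 27.2% of all genes were called. HSPA1A was then at 4.08, HSPA6 at 4.53, HSPA8 at 1.40 and HSPH1 at 1.52 (log2 fold change). For SHP1705 against DMSO that fit called 8 genes, all lower, where 36.3% of all genes were called, with HSPA1A at -4.88. Leaving out SHP1705 replicate 1 alone gave the same count of 8 in that comparison and in the interaction, as did leaving out combination replicate 1 in the interaction.

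Inducible and constitutive HSP70 were compared within each library as the log2 ratio of counts to HSPA8, which does not depend on library scaling. In the MG132 table HSPA1A and HSPA1B together had 0.4809 ± 0.0413 times the counts of HSPA8 in DMSO (SD, n = 3), 0.5447 ± 0.0205 with SHP1705, 0.5677 ± 0.125 with MG132 and 9.61 ± 0.0918 in the combination. The log2 ratio was -1.06 ± 0.13 in DMSO and 3.26 ± 0.01 in the combination, a difference of 4.32, or 20-fold, with all 3 libraries above all 3. The log2 ratio of HSPA6 to HSPA8 was 5.98 higher in the same comparison, or 63.1-fold. With 3 against 3 libraries the smallest p of an exact two-sided permutation test is 0.1, so no comparison of this kind can pass 0.05. That value was reached for both ratios here (0.16 after Benjamini-Hochberg adjustment over 24 comparisons). In counts, HSPA1A and HSPA1B together thus lay below HSPA8 in all DMSO libraries and above it in all combination libraries.

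At 24 h the ratio of HSPA1A and HSPA1B to HSPA8 stood at 1.179 ± 0.0384 in DMSO, 1.315 ± 0.0416 with SHP1705, 2.12 ± 0.275 with carfilzomib and 3.717 ± 0.179 in the combination (SD, n = 3). Libraries of these groups did not overlap, in that order (exact permutation p = 0.1 for each of the 4 comparisons made, the smallest possible, and 0.16 adjusted). From carfilzomib to the combination the log2 ratio was 0.82 higher, while the sum of the numerator genes had a log2 fold change of 0.08 (adjusted p = 0.291, edgeR) and HSPA8 fell by 0.75. The ratio of HSPA6 to HSPA8 was 4.24 higher in the combination than in DMSO, or 18.9-fold, and 1.41 higher than with carfilzomib alone (exact permutation p = 0.1 each, 0.16 adjusted). SHP1705 alone gave a log2 ratio of HSPA1A and HSPA1B to HSPA8 that was 0.18 above DMSO at 8 h in the MG132 table and 0.16 above DMSO at 24 h, without overlap in either. In the carfilzomib table at 8 h the same ratio ranged from 5.375 to 5.86 in the libraries labelled DMSO and from 0.6606 to 0.8178 in those labelled carfilzomib.

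**Figure D4:**
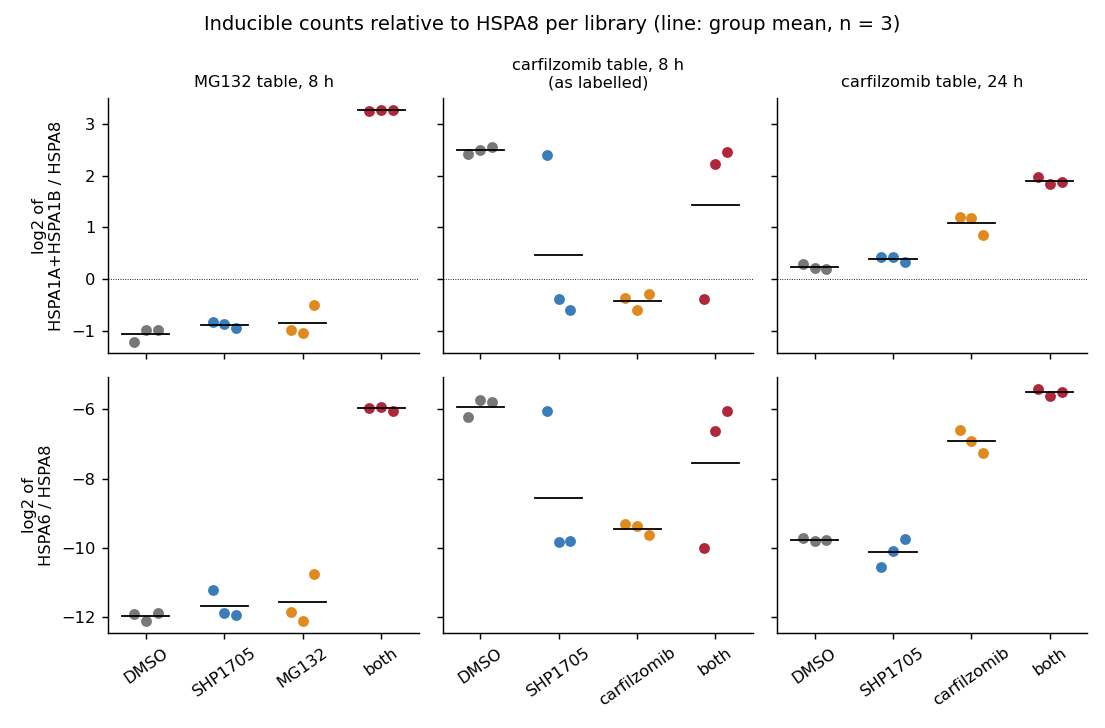
Log2 ratio of HSPA1A and HSPA1B counts (top) and of HSPA6 counts (bottom) to HSPA8 counts in each library, with the group mean (line, n = 3), for the 3 tables. The MG132 combination has a mean of 3.26 in the top row against -1.06 in DMSO, and at 24 h the group means run from 0.24 in DMSO to 1.89 in the combination.

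The share of HSPA1A in the summed HSPA1A and HSPA1B counts differed between groups in the MG132 table and at 24 h, a feature chosen after its values were seen and given as a description. The share was 36.07% ± 0.486 in DMSO and 42.58% ± 0.34 in the combination of the MG132 table (SD, n = 3). At 24 h it was 36.39% ± 0.216 in DMSO, 37.18% ± 0.317 with SHP1705, 39.37% ± 0.242 with carfilzomib and 41.23% ± 0.465 in the combination. In the carfilzomib table at 8 h it lay between 36.92% and 41.27% with no order by label. How the counting assigned reads that fit both genes is not given in the sources used here, and the part of it in this share was not tested. HSPA7, the near copy of HSPA6, had 374 to 407 counts in the MG132 combination and at most 1 in DMSO, 7.48% ± 0.238 of the summed HSPA6 and HSPA7 counts in the combination.

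HSP70 works with J-domain proteins, exchange factors and HSP90, and a list of 25 such partners and regulators was followed beside the 9 genes. In the MG132 combination against DMSO 20 of 25 rose and 2 fell, where 29.2% of all genes tested rose and 29.7% fell, with a median log2 fold change of 1.24 against -0.01 over all genes tested. By smallest p the first were DNAJB1, the main stress-induced J-domain partner (3.86 ± 0.04), HSP90AA1, the inducible cytosolic HSP90 (2.49 ± 0.03), HSP90AB1, its constitutive form (1.69 ± 0.02), and BAG3, an exchange factor that directs HSP70 clients to autophagy (3.01 ± 0.04). Among the same partners none were called for MG132 alone by edgeR (3 with an unadjusted p under 0.05). At 24 h, carfilzomib against DMSO gave 5 higher and 3 lower of 25 (median 0.02), where 10.1% of all genes were called higher and 11.4% lower. The share of partners called lower was near that of all genes. Partners called included HSP90AA1 (0.56 ± 0.04) and the HSP70 cofactor BAG2 (0.43 ± 0.06), both higher. STUB1, the ubiquitin ligase CHIP that binds HSP70 (-0.41 ± 0.07), was lower. In the combination at 24 h 7 of 25 rose and 4 fell (median -0.01), where 13.0% of all genes rose and 14.3% fell, so that the share that fell was near that of all genes. DNAJA1, a J-domain partner of HSPA8, fell (-0.42 ± 0.04) and so did STUB1 (-0.41 ± 0.07), while HSP90AA1 (0.48 ± 0.04) and ST13, which slows nucleotide release from HSP70 (0.33 ± 0.05), rose. DNAJB1 was among the genes that fell in the 24 h combination (-0.27 ± 0.05), while HSPA1A, HSPA1B and HSPA6 rose. It was named outside the rule for naming partners, after its values were seen.

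Of 8 relatives outside the member list, 6 rose in the MG132 combination against DMSO (median log2 fold change 1.03), where 29.2% of all genes did. HSPA5, the chaperone BiP of the endoplasmic reticulum, rose by 2.01 ± 0.03, HSPA9, the mitochondrial HSP70, by 1.23 ± 0.02, HYOU1, the HSP110 relative of the endoplasmic reticulum, by 0.83 ± 0.02 and HSPA13 by 1.01 ± 0.04. In the 24 h combination 5 of 8 rose against DMSO, where 13.0% of all genes did, by 0.27 ± 0.04 for HSPA9 and 0.39 ± 0.07 for HSPA13, and HSPA5 was at 0.02 ± 0.04 (adjusted p = 0.821, edgeR). Of the 8 relatives 0 fell in that comparison, where 14.3% of all genes did (0 with an unadjusted p under 0.05 and a negative log2 fold change).

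Genes most like the members in pattern were found by the root mean square distance between log2(CPM + 0.5) values centred on each table, over all 36 libraries and 10098 genes. Nearest to the sum of HSPA1A and HSPA1B, whose own values spread by 1.95 around the table means, were DNAJB1 (distance 0.681), GABARAPL1 (0.758), ZFAND2A (0.767), BAG3 (1.00) and DNAJB4 (1.04). Nearest to HSPA8, with a spread of 0.664, were DNAJA1 (0.238), DNAJB9 (0.25), C3orf52 (0.255), TXNRD1 (0.265) and TNFRSF10D (0.268). Of the 9 genes, HSPA6 lay 0.737 from the sum of HSPA1A and HSPA1B, while HSPA4L (0.308 against an own spread of 0.637) and HSPH1 (0.342 against 0.869) lay closer to HSPA8 than to that sum. HSPA4 (0.428) and HSPA1L (0.607) were also nearer to HSPA8 than to the sum, but at distances above their own spreads of 0.361 and 0.298. HSPA2 was below the level filter of this comparison, a mean of 5 CPM in each table. The distance counts the size of changes as well as their shape. A gene that spreads far less than the sum cannot lie near it, even where both rise and fall together. HSPH1 lay 1.11 and HSPA4L 1.33 from the sum. Lying closer to HSPA8 thus does not say that a gene follows HSPA8 more than the inducible genes. These distances are descriptions that use no label other than the table.

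Effects at 24 h and 8 h of carfilzomib were set against each other as the difference of log2 fold changes within the 2 tables, and the 8 h side rests on the labels doubted above. Carfilzomib against DMSO differed for 7 of 9 genes, where 33.8% of all genes did, with HSPA6 at 7.89 ± 1.62, HSPA1A at 5.33 ± 1.23 and HSPA8 at 1.47 ± 0.48 (24 h minus 8 h, adjusted p at most 0.0231, edgeR's quasi-likelihood test). The combination against DMSO differed for 2 genes, HSPA6 (4.62 ± 1.51, adjusted p = 0.0499) and HSPA4 (0.62 ± 0.19, adjusted p = 0.0394), where 11.6% of all genes did. Without SHP1705 replicate 1 and combination replicate 1 of the 8 h table, the libraries chosen by their HSPA1A level, the count was 6, with HSPA8 at -0.64. No gene was called in the combination without 8 h DMSO replicate 2 or 3, 8 h combination replicate 1, or any 24 h DMSO or combination library.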

How the data were processed

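The data, polyA RNA-seq of the MDA-MB-231 line, were 3 tables of raw gene counts (whole numbers) that the authors deposited, 1 for each set of 12 libraries. Per the submitters' processing notes, Trimmomatic, FastQC, HISAT2 and featureCounts were used with hg38. No version, annotation, strand setting or rule for reads that fit several genes is stated in the labels or notes. Thus HSPA1A, HSPA1B, HSPA6 and HSPA7 can share reads, and HSPA1L and HSPA1A lie close on opposite strands.

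Each table was fitted with edgeR 4.0.16 (R 4.3.3, filterByExpr, TMM, prior count 0.125, quasi-likelihood F-test) over all 12 libraries in 4 groups, without a replicate block, with Benjamini-Hochberg adjustment over all genes tested (16591, 15577 and 16183). A call is an adjusted p under 0.05, and the SE of a log2 fold change was derived from its F value. The 24 h and 8 h carfilzomib tables were also fitted together for the difference of effects. CPM use TMM-scaled library sizes, and levels per kilobase use the exon union of GENCODE v29. Ratios to HSPA8 use counts + 0.5 and exact two-sided permutation tests (scipy 1.17.1). Promoter windows are from RefSeq, matched by symbol for 9 of 9 genes. No pair of libraries of a group held identical counts.

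Alternatives were RLE factors, no filter, DESeq2 1.42.0, a replicate block, HSPA1A and HSPA1B summed, fits of only the groups compared, other pseudocounts and leaving out each library. Leaving out 2 libraries that stood apart and 4 with POSTN was chosen after seeing the data. The code was tested on simulated data. Members and gene lists were chosen with earlier results of these data known. Named genes are the 9 members, up to 4 listed partners or relatives of smallest p per comparison, the 5 nearest genes in pattern, and PER3 and POSTN as checks. For the 24 h combination against DMSO, HSPA5 and DNAJB1 were named outside that rule.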

Additional observations from a re-analysis of the deposited data

Results flagged for a closer look

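The effect of SHP1705 differed with and without MG132 at 8 h for 7 genes by the interaction term of edgeR's fit (log2), at 5.65 for HSPA1A, 5.41 for HSPA1B, 6.72 for HSPA6, 1.61 for HSPA8, 1.23 for HSPA4, 1.83 for HSPA4L and 2.66 for HSPH1. With carfilzomib for 24 h the terms past the threshold were 1.14 for HSPA6 and -0.60 for HSPA8. That of HSPA8 was called in every alternative fit, while that of HSPA6 was not called in most fits that left out a library.

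The effect of carfilzomib against DMSO differed between 24 h and 8 h for 7 genes by the same kind of test (24 h minus 8 h, log2), at 5.33 for HSPA1A, 5.16 for HSPA1B, 7.89 for HSPA6, 1.47 for HSPA8, 0.88 for HSPA4, 1.79 for HSPA4L and 1.997 for HSPH1. The effect of the combination differed for HSPA6 (4.62) and HSPA4 (0.62), but neither was called once any 24 h DMSO or combination library was left out. The 8 h side of these differences rests on labels that PER3 and the inducible genes go against.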

How the results depend on the processing

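Of 3347 log2 fold changes of the 9 genes under alternatives, 1 that was not called as reported was called with the opposite sign, and no called direction reversed. It was HSPA4L in the 8 h carfilzomib table, from -0.09 to 0.95 (combination against SHP1705) without the 2 libraries that stood apart, which were chosen by their HSPA1A level, so that values without them are descriptions. Another 78 had the opposite sign and no call in either fit. Without those 2 libraries the counts of genes called in that table were 8 for SHP1705 against DMSO, 7 for the combination against carfilzomib, 8 against SHP1705 and 8 for the interaction, and 6 for the time difference of the combination. Without the 4 libraries with POSTN, SHP1705 against DMSO in the MG132 table called 1 gene, and the log2 ratio of HSPA6 to HSPA8 differed by 0.75 for SHP1705 against DMSO, by -0.15 for MG132 against DMSO and by 6.13 for the combination against MG132. With no filter on low counts the counts were 2 for MG132 against DMSO, 7 for SHP1705 against DMSO, 6 for the combination against DMSO, 6 against carfilzomib and 7 for the interaction in the 8 h carfilzomib table, and 1 for SHP1705 against DMSO and 5 for the combination against carfilzomib at 24 h. That setting also raised the count of SHP1705 against DMSO in the MG132 table and of the interaction at 24 h to 3. DESeq2 called 2 genes in the interaction of the 8 h carfilzomib table, fitting only the groups compared called 1 for SHP1705 at 24 h, and RLE factors called 1 for the time difference of the combination. For these changes the cause was not tested.

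Replicate numbers showed no pairing in the MG132 table, with correlations of deviations from -0.157 to 0.129. Of its 12 libraries, 4 were closest to their own number. Nor did they at 24 h (-0.066 to 0.051, 2 of 12). In the carfilzomib table at 8 h (-0.67 to 0.24, 0 of 12) each replicate 1 fell with another label. Deviations there are taken from label means that mix such libraries, so the check cannot decide on pairing in that table. With the replicate as a block the counts were 0 for carfilzomib against DMSO at 8 h, 1 for SHP1705 at 24 h, 1 for the interaction at 24 h, 6 for the time difference of carfilzomib and 0 for that of the combination.

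The ratio of HSPA1A alone and of HSPA1B alone to HSPA8 differed between combination and DMSO by 4.56 and 4.17 in the MG132 table and by 1.84 and 1.54 at 24 h. With a pseudocount of 5 the HSPA6 ratio differed by 5.79 and 4.11. Leaving out 1 library at a time, counts ranged from 0 to 2 for SHP1705 and 7 to 8 for the combination against MG132 in the MG132 table. At 24 h they ranged from 0 to 1 for SHP1705 and 1 to 2 for the interaction. In the 8 h carfilzomib table they ranged from 0 to 8 for SHP1705, 0 to 7 for carfilzomib and 0 to 8 for the interaction, and for the time difference of the combination from 0 to 2. Low counts limit HSPA2, HSPA6 in unstressed libraries and HSPA1L, and 3 libraries a group limit every ratio test.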
